A study of Mus musculus with 12 samples.

Results

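The genes described here are 36 genes of DNA replication and cell division, taken from the table by a list of symbols. All 36 were among the 12339 genes in the table of counts and all passed the filter on low counts. By textbook role, 14 act in replication or in the supply of nucleotides: Mcm2 to Mcm7, Gins2, Pcna, Rrm1, Rrm2, Tyms, Tk1, Uhrf1 and Hells. The other 22 act in entry to and passage through mitosis: Mki67, Top2a, Cdk1, Ccna2, Ccnb1, Ccnb2, Aurka, Aurkb, Birc5, Cdca8, Bub1, Bub1b, Cdc20, Ube2c, Plk1, Kif11, Kif23, Tpx2, Nusap1, Prc1, Cenpe and Cenpf.

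RNA came from mouse macrophages that thioglycolate, a sterile irritant, had drawn into the peritoneum, in 4 groups of 3 libraries: WT on chow, WT on a high-fat Western diet (HFD), and a line labelled meKO on chow or on HFD. Protein kinase C epsilon of myeloid cells, encoded by Prkce, is the subject named in the title of the series, so meKO is read as its myeloid knockout, but the labels give neither the driver of the deletion nor the strain. All animals, controls included, were injected at 8 weeks of age with AAV8PCSK9, a virus that strips the LDL receptor from hepatocytes, and the cells were taken after 4 weeks on the diet. The labels state 8 animals of each genotype, 4 of them on HFD, and do not say that each library is 1 animal, so p-values measure the spread between these libraries.

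A dividing cell makes the MCM helicase, the sliding clamp PCNA and deoxynucleotides in S phase, largely under E2F transcription factors, and makes cyclin B, CDK1 and the spindle proteins in G2 and M phase, largely under a promoter element named CHR (cell cycle genes homology region) with nearby CCAAT boxes. Quiescent cells repress both sets through RB family proteins and the DREAM complex. Macrophages drawn into the peritoneum by an irritant derive mostly from blood monocytes and largely stop dividing as they mature, whereas resident peritoneal macrophages can renew by division in place.

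Promoters are shown because the mitosis members varied together across libraries, as described further on. RefSeq lists promoters for 31 of the 36 members on GRCm38.p6, each a window of 300 bases from 250 before the transcript start to 50 after it. E2F sites were searched as TTTCCCGC, TTTGGCGC, TTTCGCGC or TTTGCCGC, CHR as TTTGAA, and the CCAAT box as CCAAT, each on both strands. E2F letters were in the windows of 50% of the 12 replication members listed and 5.26% of the 19 mitosis members, against 4.72% of the 9553 genes of the table that have a window. CHR letters were in 8.33% and 73.7%, against 14.7%, and CCAAT in 75% and 89.5%, against 43.3%. A match is only a string of letters in this window.

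The 250 bases before the start are given below for the members that best show the contrast and for members that the diet comparison turns on, 5′ to 3′ on the strand of the gene, with matches in capitals (ATTGG and TTCAAA are CCAAT and CHR on the other strand). Mcm6, a helicase subunit (chr1:128359706-128359955, minus strand), holds 3 E2F matches, those at 110 and 106 overlapping on opposite strands, and 2 CCAAT matches. Cdk1, the mitotic kinase (chr10:69352913-69353162, minus strand), holds 1 E2F match, 2 CHR matches and 3 CCAAT matches. Cdc20, an activator of the anaphase-promoting complex (chr4:118437344-118437593, minus strand), holds a CHR match 18 bases before the start between CCAAT boxes at 53 and 8. Ccnb2, a B-type cyclin (chr9:70421555-70421804, minus strand), holds 3 CCAAT boxes and a CHR match at 167. A further CHR match of Ccnb2, at base 5 after the start, lies in the window but outside the bases shown. Top2a, the topoisomerase that untangles chromosomes (chr11:99024190-99024439, minus strand), holds 6 CCAAT boxes with 2 CHR matches. Pcna (chr2:132253181-132253430, minus strand) holds a CCAAT box alone, and Tyms, thymidylate synthase (chr5:30073626-30073875, minus strand), holds none of these letters.
Mcm6: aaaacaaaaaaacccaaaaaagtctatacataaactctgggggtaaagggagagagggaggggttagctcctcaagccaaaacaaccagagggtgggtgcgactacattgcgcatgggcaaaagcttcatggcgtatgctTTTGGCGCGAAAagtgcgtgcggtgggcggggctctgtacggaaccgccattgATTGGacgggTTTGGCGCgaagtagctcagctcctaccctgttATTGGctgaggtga
Cdk1: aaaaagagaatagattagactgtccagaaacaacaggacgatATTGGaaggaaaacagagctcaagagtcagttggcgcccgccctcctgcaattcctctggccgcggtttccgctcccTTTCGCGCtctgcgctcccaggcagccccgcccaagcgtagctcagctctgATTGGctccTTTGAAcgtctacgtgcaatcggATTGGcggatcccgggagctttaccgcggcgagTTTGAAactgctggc
Cdc20: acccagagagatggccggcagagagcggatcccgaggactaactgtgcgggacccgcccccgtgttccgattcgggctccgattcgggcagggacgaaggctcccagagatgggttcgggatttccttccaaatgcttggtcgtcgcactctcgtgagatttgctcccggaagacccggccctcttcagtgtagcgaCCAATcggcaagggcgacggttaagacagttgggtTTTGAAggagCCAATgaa
Ccnb2: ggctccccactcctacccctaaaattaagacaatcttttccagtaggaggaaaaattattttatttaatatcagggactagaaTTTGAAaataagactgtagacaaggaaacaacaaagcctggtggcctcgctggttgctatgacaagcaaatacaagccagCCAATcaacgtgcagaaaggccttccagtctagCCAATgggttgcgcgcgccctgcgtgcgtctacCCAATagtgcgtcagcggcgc
Top2a: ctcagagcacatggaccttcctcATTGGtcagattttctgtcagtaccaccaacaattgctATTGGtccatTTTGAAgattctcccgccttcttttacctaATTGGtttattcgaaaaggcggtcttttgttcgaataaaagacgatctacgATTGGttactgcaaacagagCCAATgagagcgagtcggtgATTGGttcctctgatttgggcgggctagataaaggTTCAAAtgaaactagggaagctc
Pcna: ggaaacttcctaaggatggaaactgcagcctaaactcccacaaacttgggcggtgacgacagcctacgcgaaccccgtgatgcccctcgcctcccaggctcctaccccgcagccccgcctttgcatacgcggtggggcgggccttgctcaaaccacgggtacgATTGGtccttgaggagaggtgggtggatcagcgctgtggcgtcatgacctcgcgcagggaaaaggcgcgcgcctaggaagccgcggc
Tyms: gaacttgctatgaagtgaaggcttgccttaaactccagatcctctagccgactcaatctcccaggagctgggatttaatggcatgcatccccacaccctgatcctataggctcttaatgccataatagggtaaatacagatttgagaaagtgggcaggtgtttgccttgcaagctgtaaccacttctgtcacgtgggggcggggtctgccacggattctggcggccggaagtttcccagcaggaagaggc

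The libraries held 25844958 to 37282772 counts each, of which the members made up 10541 to 15758. Prkce was at 2.01 to 4.44 CPM (counts scaled to library size with edgeR's TMM factors) in the 6 WT libraries and at 0.95 to 1.78 in the 6 meKO libraries, with no overlap, although its difference did not pass the test (edgeR adjusted p = 0.0588). None of the 10 macrophage markers examined was at 0 in any library, and their summed level was 36973 to 60267 CPM in the WT libraries and 6666 to 28232 in the meKO libraries, with no overlap. In every library but meKO chow replicate 2, most of that sum was Lyz2, a lysozyme gene singled out after its values were seen. Lyz2 was at 30482 to 53835 CPM in WT and 69.3 to 21309 in meKO. In meKO chow replicate 2 the sum was 6666 CPM and Lyz2 was at its lowest, 69.3. The other meKO sums were 22848 to 28232 CPM. Without Lyz2 the sums were 5792 to 6761 in WT and 6008 to 7151 in meKO. WT chow replicates 1 and 2 stood apart in that their counts were higher for genes with long transcripts: Spearman's rho between a gene's deviation from its mean and transcript length was 0.64 and 0.68 across 11532 genes, against -0.46 to 0.13 in the other 10. Where a correction for length and GC content ended the call of a named gene, the corrected value or call is given. Counts of genes called are as tested unless given as corrected.

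The most abundant members were replication genes, although members of both roles reached low levels. Per kilobase of the longest transcript, Pcna stood at 79 CPM, next came Rrm1, the large subunit of ribonucleotide reductase, at 10.7, Mcm6 at 9.85, Mcm3 at 9.73 and Mcm4 at 6.88. Mcm7, Mcm5 and Mcm2 lay between 2.8 and 3.74. Among mitosis members, Cdca8, a subunit of the chromosomal passenger complex, was highest at 3.62 CPM per kb, followed by Tpx2, a spindle assembly factor, at 2.88 and Aurkb, the passenger complex kinase, at 2.87. Replication members also stood low in the order, with Tk1 at 1.31, Tyms at 1.27, Hells at 0.651 and Uhrf1 at 0.611 CPM per kb. The lowest members were Plk1, a mitotic kinase, at 0.501, Cenpe, a kinetochore motor, at 0.316 and Cenpf, a kinetochore protein, at 0.104. In raw counts a member had from 18 reads (Cenpf) to 5012 reads (Pcna) in a library, so counting error was larger for the members with few reads.

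**Figure D1:**
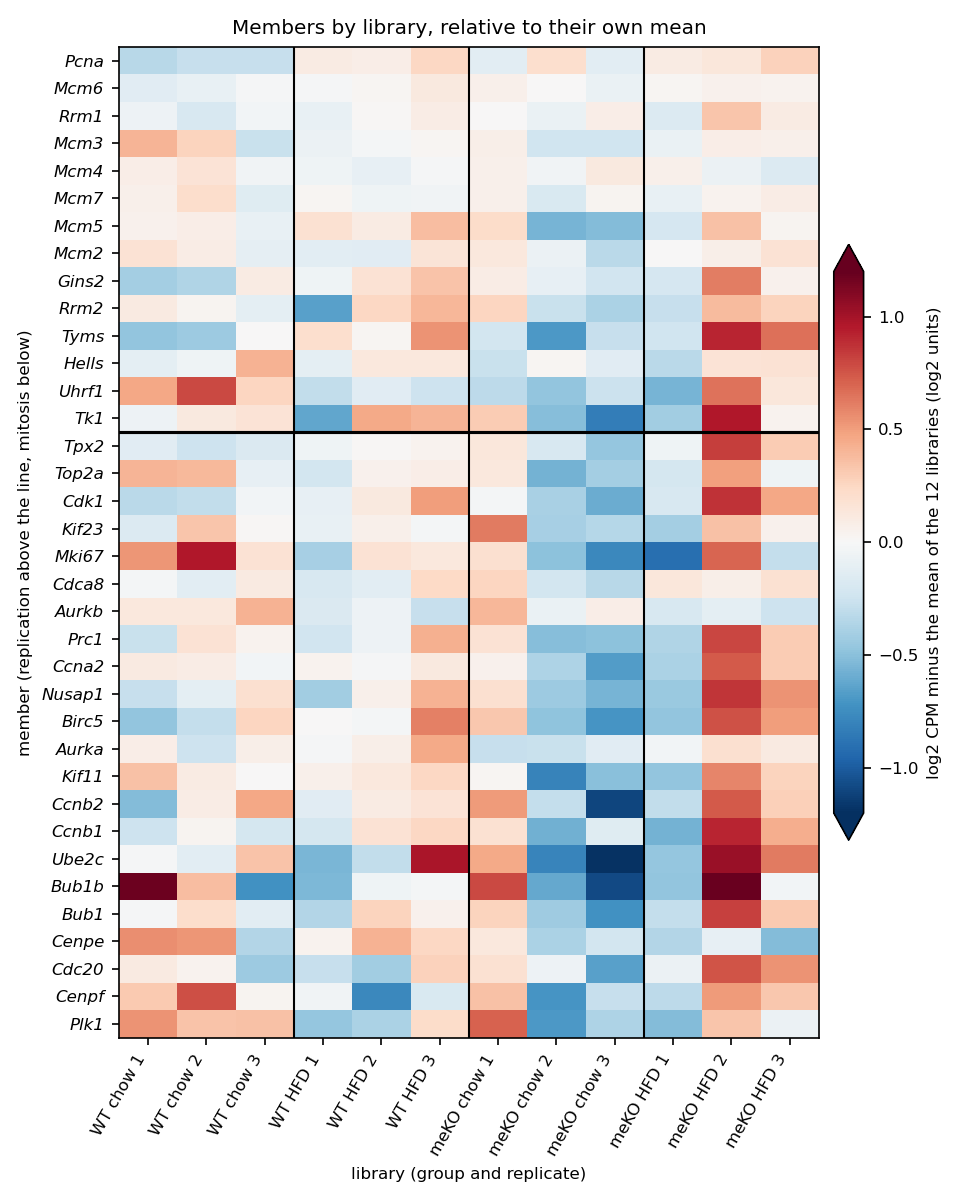
Each cell is a member's log2 CPM in 1 library minus its mean over the 12 libraries, with replication members above the line and mitosis members below, each sorted by mean CPM. In the column of meKO HFD replicate 2 most mitosis members are above their mean (up to 1.19 for Bub1b), and in meKO chow replicate 3 most are below (down to -1.19 for Ube2c).

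HFD was first set against chow over both genotypes, the comparison with most libraries a side (6 against 6). Pcna, Tyms and Cdk1 rose and Aurkb fell, 4 members called out of 36, where a call is an adjusted p under 0.05 over all 12339 genes. Over all genes 30.2% were called, 14.9% higher on HFD and 15.3% lower, so a call was common in this comparison. The members' median log2 difference was 0.18, with 25 of 36 above 0, beside a median of -0.03 and 47% above 0 over all genes. It was 0.09 for replication members and 0.27 for mitosis members.

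Pcna encodes the clamp that holds DNA polymerases on the template. It was at 94.4, 97.7 and 97.4 CPM in WT chow and at 127, 126 and 141 in WT HFD, so that every WT HFD library lay above every WT chow library. In meKO it was at 108, 136 and 108 CPM on chow and at 127, 131 and 144 on HFD, where the groups overlapped through meKO chow replicate 2. The log2 difference over both genotypes was 0.32 ± 0.08 (SE, adjusted p = 0.012). With length and GC content corrected it was 0.09 ± 0.08 (adjusted p = 0.415), so that the call on Pcna, whose transcript is 1518 bases long, holds only without that correction. Reads could also be shared with its processed copies Pcna-ps1 and Pcna-ps2, so its level is uncertain.

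Tyms makes the thymidine nucleotide from deoxyuridine nucleotide. Its CPM was 2.72, 2.78 and 3.80 in WT chow and 4.37, 3.86 and 5.56 in WT HFD. The meKO libraries were at 3.26, 2.33 and 3.11 on chow and at 3.20, 7.21 and 6.04 on HFD. All WT HFD libraries were above all WT chow libraries, while in meKO 1 HFD library lay within the chow range. The log2 difference of 0.74 ± 0.20 (SE, adjusted p = 0.0157) passed under each of the 20 alternative settings tried, with an adjusted p of 0.00137 to 0.0477. A copy, Tyms-ps, could share its reads.

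Cdk1 drives the entry into mitosis together with cyclins A and B. Its CPM was 6.20, 6.27 and 7.57 in WT chow, 7.22, 8.40 and 10.9 in WT HFD, then 7.61, 5.89 and 5.08 for meKO on chow and 6.75, 14.2 and 10.6 for meKO on HFD. In each genotype the lowest HFD library lay below the highest chow library. The log2 difference was 0.58 ± 0.17 (SE, adjusted p = 0.0256), and it missed the threshold when any of 5 libraries was left out (adjusted p 0.0548 to 0.0737). These were WT chow replicates 1 and 2, WT HFD replicate 3, meKO chow replicate 3 and meKO HFD replicate 2.

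Aurkb was the member that went the other way. It was at 6.05, 6.04 and 7.44 CPM in WT chow against 4.92, 5.30 and 4.54 in WT HFD, and at 7.31, 5.21 and 5.84 in meKO chow against 4.84, 5.07 and 4.65 in meKO HFD. Within each genotype all HFD libraries lay below all chow libraries. The log2 difference was -0.37 ± 0.12 (SE, adjusted p = 0.0293), and -0.43 ± 0.10 (adjusted p = 0.0111) with length and GC content corrected. Without WT chow replicate 1, WT HFD replicate 1 or 3, meKO chow replicate 1 or 3, or meKO HFD replicate 3 the adjusted p was 0.0528 to 0.0773. Its partners in the passenger complex that are members, Birc5 (survivin) and Cdca8 (borealin), were not called, with log2 differences of 0.47 and 0.10. Incenp, a partner outside the member list, was called lower at -0.65 ± 0.12 (SE, adjusted p = 0.00565), as described further on.

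**Figure D2:**
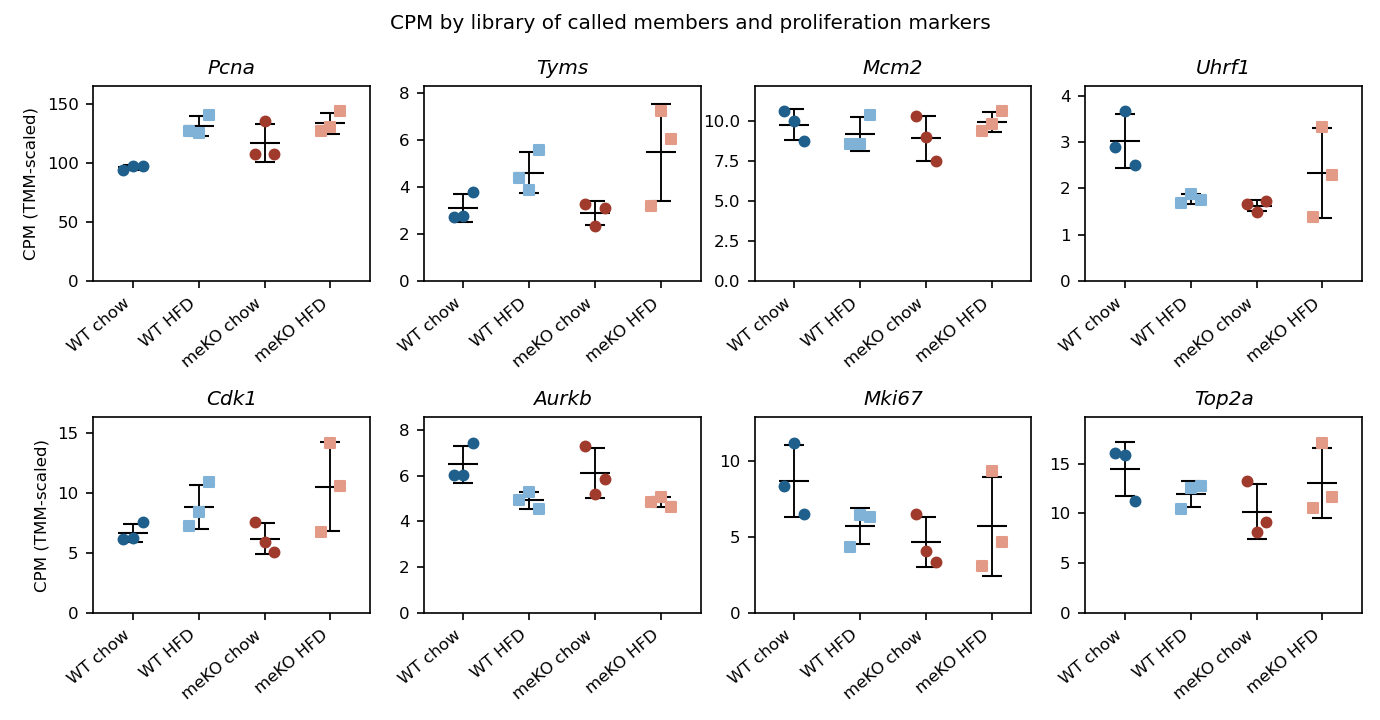
TMM-scaled CPM in each library (points) with the mean and SD of 3 libraries (bars) for the called members Pcna, Tyms, Cdk1 and Aurkb, the markers Mcm2, Mki67 and Top2a, and Uhrf1; each vertical axis starts at 0. Aurkb is lower in every HFD library than in every chow library of the same genotype, and Pcna is higher in every WT HFD library (126 to 141) than in any WT chow library (94.4 to 97.7).

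The markers most used to count dividing cells showed no common shift with diet. Mki67, which coats mitotic chromosomes, was at 8.35, 11.2 and 6.48 CPM in WT chow, 4.34, 6.47 and 6.29 in WT HFD, then 6.54, 4.07 and 3.35 for meKO on chow and 3.06, 9.35 and 4.69 for meKO on HFD. Its lowest and highest libraries in meKO HFD were 3.06 and 9.35, a spread wider than the difference between any pair of group means. Top2a was at 16.1, 15.9 and 11.3 CPM in WT chow, 10.4, 12.6 and 12.8 in WT HFD, then 13.3, 8.11 and 9.12 for meKO on chow and 10.5, 17.1 and 11.7 for meKO on HFD, so that HFD and chow overlapped in both genotypes, while for Mki67 they overlapped in meKO but not in WT. Mcm2 was at 10.6, 10 and 8.73, then 8.58, 8.54 and 10.4, then 10.3, 8.98 and 7.50, then 9.37, 9.84 and 10.6 CPM in the same order. Over both genotypes their log2 differences on HFD were -0.16 ± 0.25 for Mki67, 0.04 ± 0.16 for Top2a and 0.03 ± 0.11 for Mcm2 (SE), none called.

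None of the other MCM subunits was called. Mcm4 had a mean of 25.8 ± 1.76 CPM in WT chow, 23.7 ± 0.682 in WT HFD, 25.4 ± 1.45 for meKO on chow and 23.7 ± 1.88 for meKO on HFD (SD, n = 3 each), and its log2 difference on HFD was -0.11 ± 0.07 (SE). Mcm6, the most even member, spanned 38.9 to 46.7 CPM over the 12 libraries, and its log2 difference of 0.08 ± 0.07 was not called (0.20 ± 0.07 with length and GC content corrected, adjusted p = 0.0538). Mcm3 and Mcm7 differed by -0.02 and -0.01, and Mcm5 by 0.26 ± 0.14 (SE, adjusted p = 0.175). The 6 MCM subunits summed to 131 ± 10.1 CPM in WT chow, 129 ± 5.51 in WT HFD, 123 ± 10.1 for meKO on chow and 129 ± 3.51 for meKO on HFD. Gins2, which joins the MCM ring in the active helicase, stood at 0.32 ± 0.15 (adjusted p = 0.121). The other nucleotide and chromatin members were Rrm1 at 0.10, Rrm2 at 0.15, Tk1 (thymidine kinase) at 0.33, Hells, a remodelling helicase, at 0.04 and Uhrf1, which recruits the maintenance DNA methyltransferase, at -0.13, none called.

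The remaining mitosis members also missed the threshold over both genotypes. Tpx2 came nearest at 0.37 ± 0.14 (SE, adjusted p = 0.0587), and with length and GC content corrected it passed at 0.50 ± 0.15 (adjusted p = 0.0333). The cyclins Ccna2, Ccnb1 and Ccnb2 differed by 0.29, 0.38 and 0.21. The kinases and spindle checkpoint members Aurka, Bub1, Bub1b and Plk1 differed by 0.27, 0.28, -0.10 and -0.35, and Cdc20 and Ube2c, both needed for the destruction of cyclin B, by 0.27 and 0.50. The spindle motors and bundlers Kif11, Kif23, Prc1 and Nusap1 differed by 0.29, -0.05, 0.32 and 0.38, and the kinetochore members Cenpe and Cenpf by -0.12 and -0.19. Reads of Ccnb1 and Ccnb2 could be shared with a pseudogene each, and Aurka, Ccna2, Cdc20, Nusap1, Prc1, Tk1, Gins2 and Mcm7 overlap other genes of the table, so their levels are less certain.

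In WT alone, Pcna was the single member called on HFD, with a log2 difference of 0.45 ± 0.11 (SE, adjusted p = 0.0201). Over all genes 21.3% were called in this comparison, 9.5% higher on HFD and 11.8% lower. The call on Pcna was lost with length and GC content corrected (0.14 ± 0.11, adjusted p = 0.383) and without WT chow replicate 1 or 2 or WT HFD replicate 1 or 3 (adjusted p 0.0517 to 0.0906). Uhrf1 at -0.77 ± 0.28 (adjusted p = 0.0621) and Aurkb at -0.40 ± 0.16 (adjusted p = 0.0847) followed and were not called. Uhrf1 passed in 7 of 21 alternative settings: library totals, DESeq2, library quality weights, only the WT groups fitted, and without WT chow replicate 3, meKO HFD replicate 1 or meKO HFD replicate 2 (adjusted p 0.00455 to 0.0477 in these, up to 0.221 in the others). Aurkb passed in 2 of 21, library totals (adjusted p = 0.0447) and the length and GC correction (0.0435). At an unadjusted p under 0.05 there were 3 members, against 39.4% of all genes.

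The WT groups did not overlap for 9 members, 4 higher on HFD (Pcna, Tyms, Mcm5 and Tpx2) and 5 lower (Uhrf1, Aurkb, Cenpf, Mki67 and Plk1), against 39.3% of all genes. Cenpf, Mki67 and Plk1 had log2 differences of -0.74 ± 0.36, -0.61 ± 0.35 and -0.61 ± 0.38 (SE). The median over the members was -0.01, with 17 above 0 and 19 below. The count called went from 1 to 3 without WT chow replicate 3, where 39.9% of all genes were called, to 2 without meKO HFD replicate 1 or 2, and to 0 without each of the 4 libraries that cost the call on Pcna.

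In meKO no member was called on HFD by edgeR, DESeq2 or limma-voom, against 0.105% of all genes by edgeR; with library quality weights 1 was, Tyms, against 3.23%. Of the members 31 of 36 lay above 0, against 49.2% of all genes. Their median was 0.34 (0.17 for replication members, 0.50 for mitosis members), beside a median of -0.01 over all genes. Members varied together across libraries, as described further on, so a count of members on 1 side of 0 is only a description. The 3 with the smallest p were Tyms at 0.91 ± 0.28 (SE, adjusted p = 0.199), Cdk1 at 0.76 ± 0.25 (0.217) and Tpx2 at 0.56 ± 0.20 (0.252). With Ccna2 and Kif11 they made 5 members at an unadjusted p under 0.05, all higher on HFD, against 15.9% of all genes. The meKO groups did not overlap for Aurka, higher on HFD, and Aurkb, lower, 2 members against 19.7% of all genes. The median rested on single libraries: it was 0.16 without meKO HFD replicate 2, 0.54 without meKO HFD replicate 1, 0.19 without meKO chow replicate 3 and 0.59 without meKO chow replicate 1. Tyms and Cdk1 passed without meKO HFD replicate 1 (adjusted p = 0.034 and 0.0455), and the count was then 2, where 1.09% of all genes were called.

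**Figure D3:**
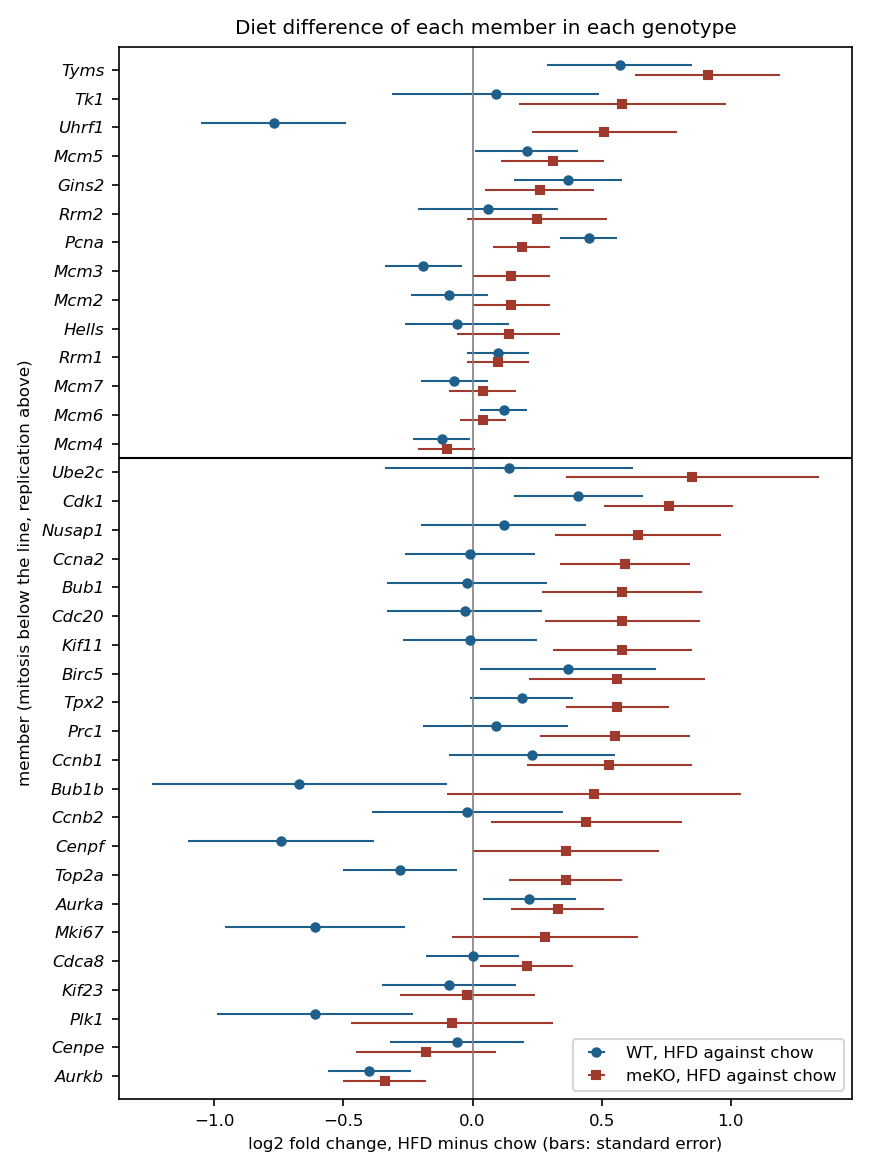
Log2 difference between HFD and chow for each member (points) with its standard error (bars), in WT (circles) and meKO (squares), replication members above the line. In meKO 31 of 36 points lie above 0, in WT 17 do, and Aurkb lies below 0 in both.

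The test of whether the diet difference depended on genotype called no member with edgeR, DESeq2 or limma-voom, against 0.0162% of all genes by edgeR; with library quality weights it called 1, Uhrf1 (adjusted p = 0.0497), against 2.39%. At an unadjusted p under 0.05 there were 2 members, Uhrf1 and Cenpf, against 6.13% of all genes. The difference of the differences, meKO minus WT, was above 0 for 32 members, against 52.9% of all genes. The members' median was 0.34, beside 0.02 over all genes. Without meKO HFD replicate 2 that median was 0.11. Uhrf1 stood first at 1.27 ± 0.40 (SE, adjusted p = 0.773), then Cenpf at 1.10 ± 0.51 and Top2a at 0.64 ± 0.31 (both 0.797). With length and GC content corrected, Uhrf1 was at 1.16 ± 0.41, Cenpf at 0.74 ± 0.49 and Top2a at 0.46 ± 0.30. Uhrf1 was at 2.89, 3.66 and 2.51 CPM in WT chow, 1.68, 1.89 and 1.74 in WT HFD, then 1.67, 1.49 and 1.73 for meKO on chow and 1.39, 3.32 and 2.30 for meKO on HFD, so that WT chow stood above WT HFD and meKO chow with no overlap.

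Between genotypes on chow no member was called by edgeR, DESeq2 or limma-voom, against 0.081% of all genes by edgeR, and 7 were with library quality weights, a setting that called 32.8% of all genes. At an unadjusted p under 0.05 edgeR found 4 members, Uhrf1, Mki67 and Top2a lower in meKO and Pcna higher, against 19.8% of all genes. Uhrf1 differed by -0.89 ± 0.28 (SE, adjusted p = 0.132), Pcna by 0.29 ± 0.11 (0.181) and Mki67 by -0.89 ± 0.36 (0.196). The groups did not overlap for Pcna and Uhrf1, 2 members against 17.1% of all genes. Of the members, 31 lay below 0, 21 of the 22 mitosis members among them, against 6192 of all 12339 genes. Their median was -0.19 beside -0.00 over all genes. Without meKO chow replicate 1 the median was -0.42, and without meKO chow replicate 2 or 3 it was -0.10 or -0.09. The count was 3 without WT chow replicate 3, where 20.6% of all genes were called, and Uhrf1 was among them (adjusted p = 0.0372). The macrophage marker sum was 37986 to 60267 CPM in WT chow and 27457, 6666 and 28232 in meKO chow replicates 1 to 3. Without Lyz2 it was 6432 to 6761 and 6597 to 7151. Its part in the members' levels was not tested.

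Between genotypes on HFD no member was called under any setting tried, against 0.081% of all genes by edgeR. A single member, Cenpe, was at an unadjusted p under 0.05, against 4.56% of all genes, and it was also the one member whose groups did not overlap, against 10.3%. Cenpe differed by -0.57 ± 0.26, Tpx2 by 0.41 ± 0.20 and Cdc20 by 0.55 ± 0.30 (SE, adjusted p = 0.999 each). Cenpe was at 2.88 ± 0.389 CPM in WT HFD and 1.93 ± 0.295 in meKO HFD (SD, n = 3). The median over the members was 0.11, with 28 above 0 against 53.9% of all genes. The median was -0.06 without meKO HFD replicate 2.

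Over both diets no member differed between genotypes by edgeR, DESeq2 or limma-voom, against 0.17% of all genes by edgeR; with library quality weights 3 did, against 31.1%. Cenpe was the single member at an unadjusted p under 0.05, against 17.7% of all genes. It differed by -0.51 ± 0.19 (SE, adjusted p = 0.199), and the median over the members was -0.01. Without WT chow replicate 3 the count called was 1, where 11.3% of all genes were called.

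With group means removed and the 4 groups pooled, most mitosis members went up and down together from library to library. The median Pearson's r over the 231 pairs of mitosis members, computed on deviations from the group means over the 12 libraries, was 0.70, with 97% of pairs above 0. For replication members it was 0.33 over 91 pairs, and over all genes with a mean count like that of the mitosis members it was -0.00. These points share their libraries and depth, and the value is a description. It was not computed for each group. In WT chow, for example, Bub1b went down over replicates 1 to 3 (5.88, 3.33 and 1.52 CPM) while Ccnb2 went up (2.40, 3.69 and 4.79).

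The widest swings were in meKO. The 22 mitosis members summed to 110, 115 and 106 CPM in WT chow and to 92.6, 106 and 121 in WT HFD. In meKO they summed to 123, 78.4 and 74.2 CPM on chow and to 85.4, 162 and 120 on HFD, so each meKO group held both high and low libraries. In meKO HFD replicate 2, 14 of the 22 had their highest level, among them Cdk1, Ccna2, Ccnb1, Ccnb2, Birc5, Bub1, Cdc20, Tpx2 and Ube2c. In meKO chow replicate 3, 11 had their lowest. The MCM sum in the same libraries moved much less, from 117 to 137 CPM over all 12. Some replication members outside the MCM subunits did swing. Tk1 went from its lowest level in meKO chow replicate 3 (0.968 CPM) to its highest in meKO HFD replicate 2 (3.51). Of the 14 replication members, 13 were above their own mean in meKO HFD replicate 2 and 3 in meKO chow replicate 3. In bulk RNA, fewer dividing cells and less RNA of the mitosis members per cell cannot be told apart.

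The spread of single mitosis members within groups was accordingly wide. Their median within-group SD was 0.39 on the log2 scale, against 0.26 for all genes with a mean count like that of the mitosis members. For replication members it was 0.22, against 0.21 over all genes, a set not matched to them in count. Counting alone would give a median SD of 0.13 for mitosis members. Bub1b and Ube2c, at 0.82 and 0.72, varied most, over 1.18 to 5.95 CPM and 1.14 to 5.57 CPM, and Mcm6, at 0.06, varied least.

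**Figure D4:**
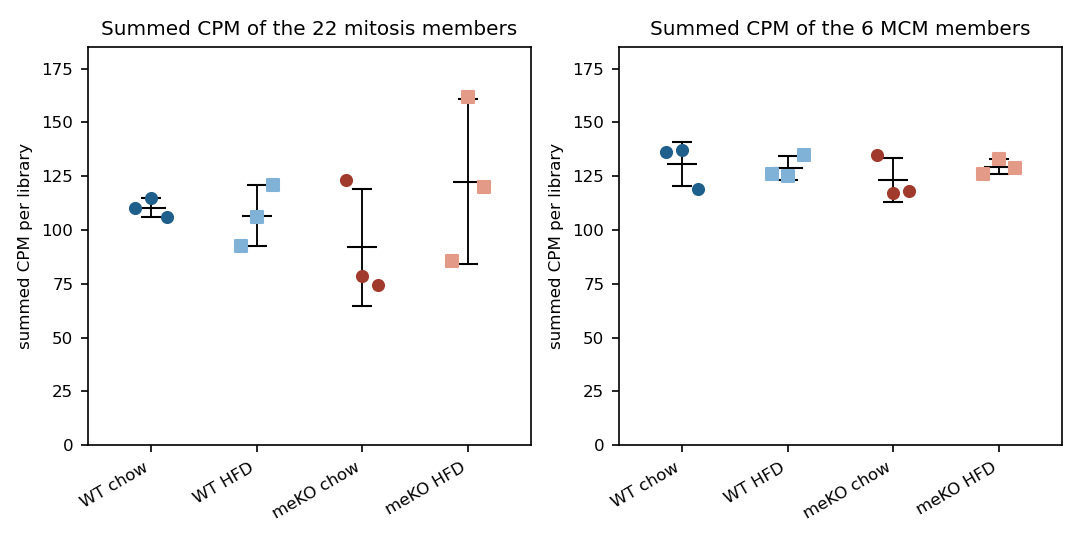
Summed TMM-scaled CPM per library (points) with the mean and SD of 3 libraries (bars) for the 22 mitosis members, left, and the 6 MCM subunits, right, on the same scale from 0. The mitosis sum spans 74.2 to 162 CPM with both extremes in meKO, and the MCM sum spans 117 to 137.

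Transcript length touched some of these differences. In the WT diet comparison Spearman's rho between log2 difference and transcript length was -0.57 over 11532 genes and -0.24 over the 36 members. With length and GC content corrected, Mki67 (10061 bases) went from -0.61 to -0.22, Cenpf (11130 bases) from -0.74 to -0.39 and Cenpe (7910 bases) from -0.06 to 0.23. Aurkb (1950 bases) went from -0.40 to -0.48 and passed the test there (adjusted p = 0.0435). In the chow genotype comparison rho was -0.64 over all genes and -0.26 over the members, and Mki67 went from -0.89 to -0.45 and Pcna from 0.29 to 0.08. In meKO on HFD against chow the members' median was 0.34 as tested and 0.36 corrected. For the genotype by diet difference rho was 0.50 over all genes and 0.11 over the members. There the members' median was 0.34 as tested and 0.27 corrected (replication members 0.16 and 0.06, mitosis members 0.49 and 0.46).

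**Figure D5:**
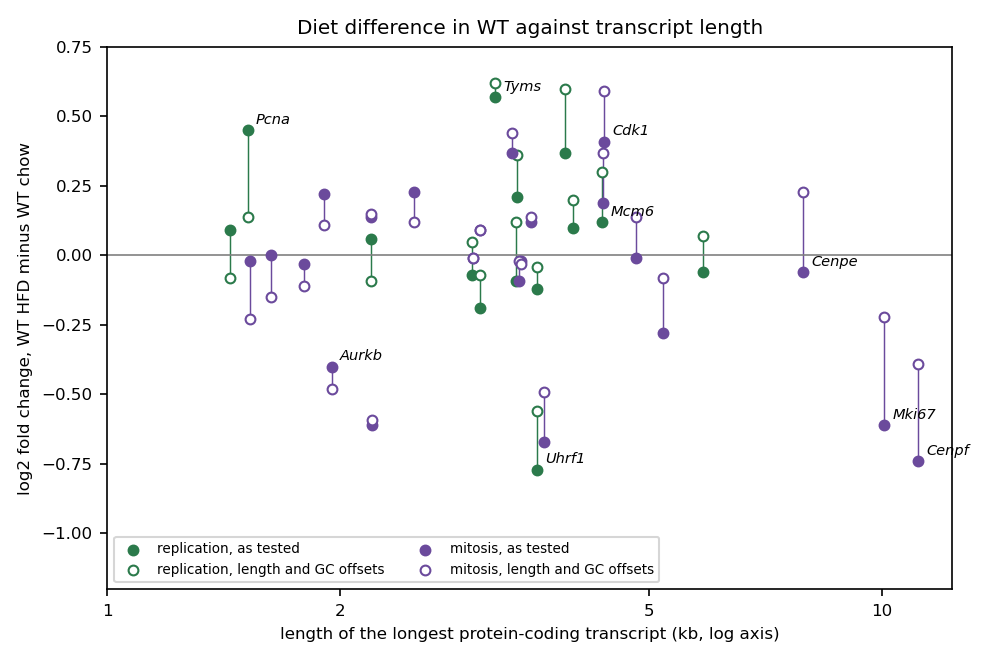
Log2 difference between WT HFD and WT chow for each member against the length of its longest protein-coding transcript (log axis), as tested (filled) and with length and GC offsets (open), joined by a line. Pcna falls from 0.45 to 0.14, the long transcripts of Mki67, Cenpf and Cenpe move up, and Tyms and Aurkb move little.

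Other genes of the same machinery are given from lists chosen for their function. Of 43 further replication fork genes, 10 rose and 2 fell on HFD over both genotypes, against 30.2% of all genes called, and 3 rose and none fell with length and GC content corrected, against 23.4%. Rnaseh2a, which removes RNA primers, rose by 0.48 ± 0.11 (SE, adjusted p = 0.00929), Gins4, a GINS subunit like Gins2, by 0.36 ± 0.09 (0.0138) and Rpa3, of the single-strand binding complex, by 0.51 ± 0.13 (0.0154). Of these Rnaseh2a alone passed after the correction (0.58), while Gins4 was at 0.15 and Rpa3 at -0.01. In WT 5 rose and 1 fell, against 21.3% of all genes, led by Rnaseh2a (0.65), Gins4 (0.46) and Prim2 (0.43), a primase subunit; corrected, 2 rose, against 12.7%, and Gins4 (adjusted p = 0.0878) and Prim2 (0.0626) were not called. The same shares of all genes stand behind the lists that follow.

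Upstream of S phase, Cdk4, the cyclin D kinase, rose by 0.52 ± 0.11 (SE, adjusted p = 0.00885) over both genotypes and by 0.60 in WT. It was the single call among 12 G1 cyclins and kinases as tested, while 2 rose and 1 fell over both genotypes when corrected. Of 14 inhibitors and p53-arm genes 3 fell, Ccng2 (-0.37), Cdkn2c (-0.32) and Cdkn1b (-0.42), the latter 2 of which bind cyclin-dependent kinases. Corrected for length and GC content, 2 of the 14 were called lower, but Cdkn2c (adjusted p = 0.101) and Cdkn1b (0.1) were not called. Of 17 RB, E2F and DREAM genes 3 fell, the pocket proteins Rbl2 (-0.46), Rbl1 (-0.28) and Rb1 (-0.26), and Rbl1 also in WT (-0.46); corrected, Rbl1 (adjusted p = 0.0591, and 0.0521 in WT) and Rb1 (0.0782) were not called. Cad, which starts pyrimidine synthesis, fell by 0.48 on the log2 scale over both genotypes and by 0.75 in WT, as the single call among 18 genes of nucleotide supply. Corrected, it was at -0.17 (adjusted p = 0.386) and -0.29 (0.339) and was not called.

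In mitosis proper, Incenp, the scaffold that activates Aurkb, fell over both genotypes (-0.65 ± 0.12, SE, adjusted p = 0.00565) as Aurkb did, and in WT (-0.89). It was called with the cohesin subunit Rad21 (-0.42) and the securin gene Pttg1 (0.42), 1 up and 2 down of 32 kinetochore and chromosome genes. Corrected for length and GC content, 4 of the 32 rose and 2 fell. In WT the calls were 1 up and 3 down (corrected, 2 up and 3 down), with Incenp, Rad21 and the checkpoint kinase Ttk (-0.83) lower. Of 33 mitotic kinase, motor and regulator genes 4 rose and 1 fell, those with the smallest p being Ckap5 (-0.49), a microtubule polymerase, Cks1b (0.81) and Cks2 (0.65), small CDK subunits. Corrected, Cks1b (0.45, adjusted p = 0.0585) and Cks2 (0.23, 0.302) were not called and 3 rose. In WT Ckap5 alone was called (-0.73).

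Of 17 anaphase-promoting complex genes 4 rose and 1 fell over both genotypes, led by Anapc15 (0.45), Anapc2 (-0.33) and Anapc10 (0.46). In WT 3 rose and 1 fell, led by Anapc15 (0.52), Anapc2 (-0.38, not called when corrected, adjusted p = 0.0799) and Anapc10 (0.55). The others called were Cdc26 and Ube2s over both genotypes and Cdc26 in WT. When corrected, Cdc26 (adjusted p = 0.881, and 0.954 in WT) and Ube2s (0.103) were not called. The corrected counts of the 17 were 4 up and 1 down over both genotypes, and 4 up and 0 down in WT. Of 22 checkpoint and repair genes 4 fell, led by Brca2 (-0.76), Blm (-0.49) and Atm (-0.44), with Topbp1 (-0.69) and Blm (-0.71) the calls in WT. With length and GC content corrected 1 of the 4, Brca2, was called over both genotypes and none in WT (Topbp1 adjusted p = 0.056, Blm 0.0923). Of 12 genes of macrophage growth control 2 rose and 3 fell, led by Maf (-0.64), a transcription factor, Klf4 (0.65) and Csf1r (-0.32), the CSF1 receptor. Corrected, Csf1r was at -0.12 (adjusted p = 0.346). The others, Klf2 (0.51) and Il4ra (-0.51), were also not called when corrected (adjusted p = 0.0705 and 0.101). The corrected counts of the 12 were 2 up and 1 down. Maf (-0.79) and Klf4 (0.73) were called in WT. Of these pathway lists no gene was called by edgeR in the genotype or interaction comparisons or on HFD in meKO, other than Maf between genotypes over both diets (-0.44 ± 0.08, SE, adjusted p = 0.0356; it passed in 10 of 20 alternative settings, with an adjusted p of 0.128 with length and GC content corrected).

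Calls among cell type markers on HFD over both genotypes stand beside 30.2% of all genes called, or 23.4% corrected. Of 10 macrophage markers 3 rose and 5 fell. Of 6 neutrophil markers 2 rose and 2 fell, and of 4 monocyte markers 1 rose and 2 fell. Of 7 dendritic cell markers 2 fell, of 3 eosinophil markers 1 fell and of 9 T and NK cell markers 1 rose. No mast cell, neutrophil precursor or red cell marker was called. All 6 B cell markers fell on HFD over both genotypes, and their sum was 197 to 250 CPM in WT chow, 114 to 138 in WT HFD, 139 to 251 for meKO on chow and 130 to 216 for meKO on HFD. Corrected for length and GC content, 4 of the 6 were called. Of 10 mesothelium and fibroblast markers 4 rose (5 when corrected), with sums of 51.8 to 91.1, 94.2 to 139, 52 to 95.7 and 111 to 139 CPM in the same order. Of 10 markers of resident large peritoneal macrophages 2 rose and 3 fell, and 1 rose and 2 fell when corrected. Their sums were 263 to 722, 990 to 1607, 514 to 1066 and 633 to 1461 CPM. Most of that was Cd5l, at means of 384, 1248, 589 and 1014 CPM in the same order, which was not called when corrected (adjusted p = 0.0585). The median log2 difference of the 10 markers on HFD over both genotypes was -0.57. In meKO HFD replicate 2, where the mitosis members were highest, the B cell, mesothelium and resident macrophage sums were 162, 139 and 1239 CPM. In meKO chow replicate 3, where the mitosis members were lowest, the sums were 241, 52 and 514. No marker of these lists was at 0 in any library, and the part of such cells in the members' levels was not tested.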

How the data were processed

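RNA-seq counts per gene in 12 libraries, 3 in each of 4 groups, were used as the authors deposited them; all 12 columns of counts matched a sample and 0 did not. Trizol extraction and TruSeq library preparation are stated per the labels. The submitters' processing notes name mm10 and DESeq2 without a role; the aligner, the counter and the use of strand are not given in the sources used here. Each gene of the deposited table reached at least 0.501 CPM in at least 6 of the 12 libraries, so low genes had been removed.

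The main test was the robust quasi-likelihood test of edgeR 4.0.16 (R 4.3.3) after filterByExpr and TMM scaling, with 4 group means fitted to all 12 libraries and Benjamini-Hochberg adjustment over 12339 genes. A standard error is the log2 difference divided by the square root of F. CPM is TMM-scaled. DESeq2 1.42.0, limma 3.58.1, other scalings and filters, each library left out, and loess offsets for transcript length and GC content (GENCODE vM21, 93.5% of genes) were alternatives. The steps were tested on simulated data. The 36 members and the pathway and marker lists were chosen with earlier results of these data known, so no test over a list is given. Full statistics are given for up to 5 called members in each direction, or for the 3 with the smallest p where fewer than 3 were called; values in each library for called members, Mki67, Top2a, Pcna, Mcm2 and Uhrf1 (the latter added after its values were seen); and up to 3 called genes of each pathway list. Library depth was 25844958 to 37282772 counts.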

Additional observations from a re-analysis of the deposited data

How the results depend on the processing

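No member was called between genotypes on HFD under any alternative. With library quality weights in limma-voom the members called were 7 between genotypes on chow (32.8% of all genes called), 10 for diet in WT (52%), 1 for diet in meKO (3.23%), 1 for the interaction (2.39%), 3 between genotypes over both diets (31.1%) and 8 for diet over both genotypes (51%). For diet in WT the count was 3 with library totals (22.2%), 2 with DESeq2 (27.9%) and 2 with only the WT groups fitted (16.7%). Leaving out each library gave 0 to 3 for genotype on chow, 0 to 0 on HFD, 0 to 3 for diet in WT, 0 to 2 in meKO, 0 to 0 for the interaction, 0 to 1 for genotype over both diets, and 2 to 10 for diet over both genotypes (main count 4; 10 without meKO HFD replicate 1, where 35.8% of all genes were called, and 2 without WT chow replicate 1, WT HFD replicate 3 or meKO chow replicate 3). The cause was not tested. The members' median log2 differences moved by less than the spread between replicates (0.27) under every alternative. That spread is an SD of single libraries, a lenient measure. With each library left out, the median ran from 0.16 to 0.59 for diet in meKO and from 0.11 to 0.58 for the interaction. For genotype on HFD it ran from -0.06 to 0.3, so its sign changed. Over the named genes, 1113 of 1349 values kept direction and side of the threshold, 214 lost the call and 21 gained it. The reversed value was Rpa3 for diet over both genotypes, 0.51 as tested and -0.01 with length and GC offsets. No paired analysis was possible because the labels give no replicate numbers that tie libraries of different groups together. Counting gave a median SD of 0.13 for the mitosis members, against 0.39 between libraries of a group.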
